A study of Acanthocheilonema viteae with 2 samples.

Results

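The miRNAs miR-71 and miR-34 were examined in the small RNA that adult worms of the filarial nematode Acanthocheilonema viteae released into culture medium. An entry belonged to the set if its name carried a nematode species code and 71 or 34 as the whole miRNA number, whatever the arm or end form. This rule gave 6 of the 384 deposited entries, 3 for miR-71 and 3 for miR-34. Entries were taken by name alone, but the rule was set with earlier results of these data known. There was 1 library from females (292740 reads summed over the entries) and 1 from males (74881.3 reads). The sexes had been held separately in RPMI-1640 with penicillin, streptomycin and glutamine for at most 3 weeks, and RNA was taken from the washed pellet of an ultracentrifuge spin at 100000 g, after passage of the medium through 0.22 µm pores. No worm body was sequenced, so the values describe released RNA and not expression in a tissue.

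In Caenorhabditis elegans, miR-71 is needed for a normal lifespan and for survival of starvation and heat, and acts in part through the insulin and DAF-16 pathway. In the same worm mir-34 is involved in the DNA damage response and in ageing, and its mammalian relatives are known as targets of p53. The miR-34 family is shared by nematodes and mammals, whereas miR-71 belongs to invertebrates and has been lost in vertebrates. A miRNA hairpin gives rise to a 5p and a 3p arm, one of which is usually kept and loaded into Argonaute while the other is degraded, and bases 2 to 8 of the kept strand, the seed, guide target recognition.

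The 6 sequences are shown because arm, 3' end and seed are what the entries differ in, followed by the mammal-named miR-34 entry and a miR-2 entry to compare them with. Capitals mark bases 2 to 8, and T stands for U as in the deposited table.
bma-miR-71_R+4: tGAAAGACatgggtagtgagacg
str-miR-71-5p_R+1: tGAAAGACatgggtagtgagacga
bma-mir-71-p3: tATCACTAttctgtttttcgcc
bma-miR-34: tGGCAGTGtggttagctggttgt
prd-miR-34-5p_R+2: tGGCAGTGtggttagctggttgtt
bma-mir-34-p3_1ss9AG: cGGCTATCgtcactgccgtcc
age-miR-34a: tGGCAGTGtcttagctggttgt
bma-miR-2a: tATCACAGccagctttgatgt

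Each hairpin was thus represented by a 5p strand of 23 nt, the same strand with 1 more base at its 3' end, and a 3p strand (22 nt for miR-71, 21 nt for miR-34). The prefixes bma, str and prd are codes of other nematodes (Brugia malayi, Strongyloides ratti and Panagrellus redivivus), so the 23-nt and 24-nt forms carry different species names although the longer holds the whole of the shorter. No other entry shared any of the 6 sequences. The miR-71 5p seed was found in these 2 entries alone among all 384, and no mammal-named entry was numbered 71. The miR-34 5p seed was found in 3 entries, the third being age-miR-34a, named after a monkey code, which shares its first 9 and last 12 bases with bma-miR-34 and differs in between, where it has 1 base against 2. When the arms of each hairpin were folded against each other, both pairs formed 17 base pairs. The miR-71 arms left overhangs of 2 bases at both 3' ends, the geometry that Drosha and Dicer cutting is known for, while the miR-34 arms left 5 and 3 bases.

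Both miRNAs took nearly the same share of all reads in the female and the male library. For bma-miR-71_R+4, the main miR-71 strand, there were 4993 female and 1281 male reads, or 1.71% of each library (95% counting intervals 1.66 to 1.75 and 1.62 to 1.81). Among the 86 nematode-named entries it ranked 9th in females and 7th in males. For bma-miR-34, the main miR-34 strand, there were 977 female and 260 male reads, 0.334% (0.313 to 0.355) and 0.347% (0.306 to 0.392), at rank 27 and 19. The female-to-male ratio of shares was 0.997 for bma-miR-71_R+4 (0.937 to 1.06) and 0.961 for bma-miR-34 (0.837 to 1.11), so both intervals held 1. Neither sex was replicated, so no spread between replicates and no test could be had. Each ratio compares these libraries, not the sexes, and every interval covers counting error only.

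In the female library bma-miR-71_R+4 lay between bma-miR-279_R+1 with 5653 reads and bma-miR-36a_R+1_1ss20TC, of an embryonic miRNA family, with 4534 reads. In the male library its neighbours were the developmental timer asu-lin-4-5p_1ss19TC with 1773 reads and bma-miR-2c_R+1_1ss1CT with 1252. The male step from miR-71 down to miR-2c was within counting error, since the interval of the miR-71 share (1.62% to 1.81%) includes the miR-2c share of 1.67%. The female neighbours lay outside the corresponding interval, at 1.93% and 1.55%. For bma-miR-34 the female neighbours were asu-miR-993-3p with 1235 and bma-miR-57 with 841 reads. Its male neighbours were the muscle miRNA asu-miR-1-3p_R-1 with 280 and bma-miR-236 with 246 reads, both inside the interval of its share.

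**Figure D1:**
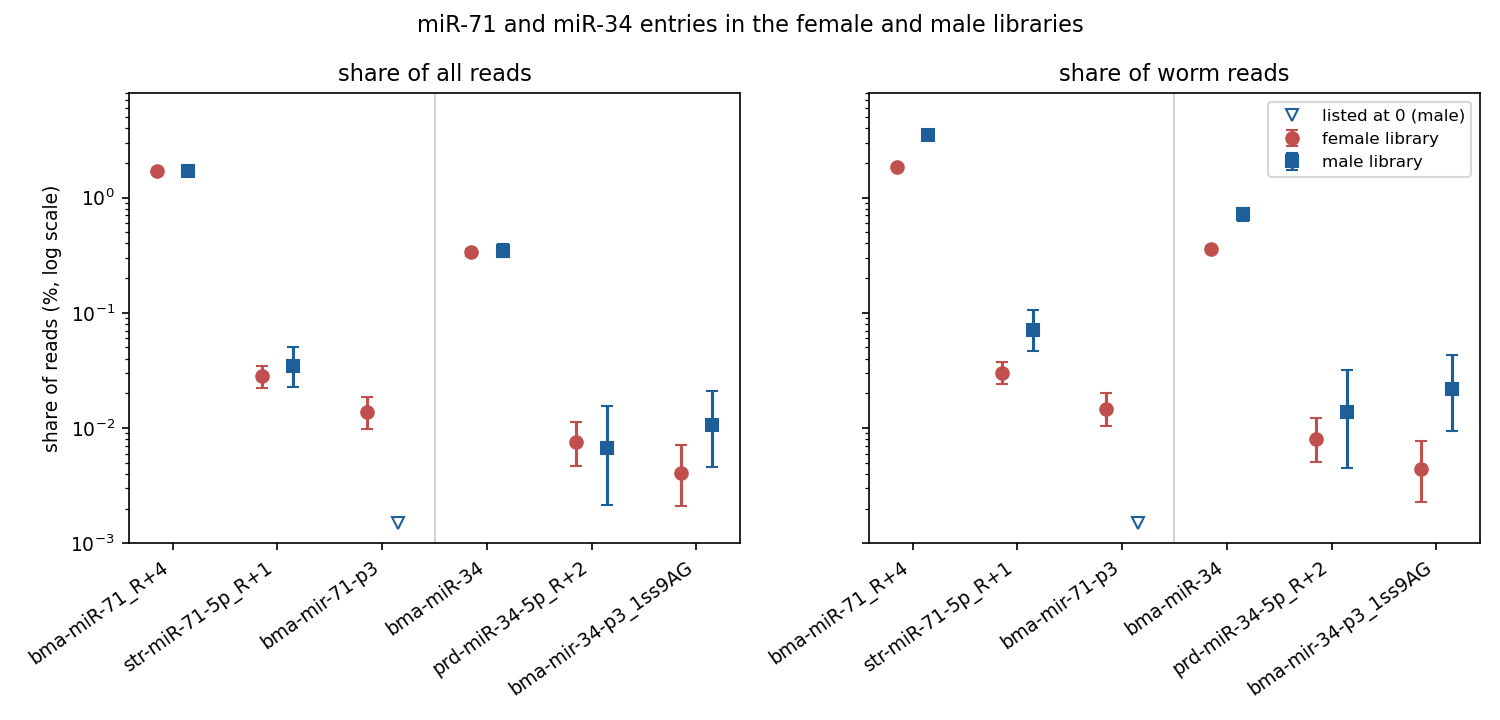
Share of reads (%, log scale) of the 6 entries in the female (circles) and male (squares) library, over all reads on the left and over worm reads on the right, with 95% counting intervals; the open triangle only marks that bma-mir-71-p3 was listed at 0 in the male library, and its height is arbitrary. The main strands of miR-71 and miR-34 are level over all reads and about 2 times higher in the male library over worm reads.

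Level shares did not mean a level part of the worm RNA, because mammal-named entries filled 6.71% of female reads and 51.4% of male reads. Over worm reads, that is nematode-named plus predicted candidate entries (93.3% of female reads and 48.6% of male reads), bma-miR-71_R+4 held 1.83% in females and 3.52% in males. The male share was thus 1.93-fold higher (1.81 to 2.05). For bma-miR-34 the worm-read shares were 0.358% and 0.715%, 2.00-fold higher in the male (1.74 to 2.29). On the authors' normalized values the side changed: bma-miR-71_R+4 had 5457 in females and 1172 in males, 4.66 times higher in the female, and bma-miR-34 had 1068 and 237.9, 4.49 times higher. What share of the mammal-named reads came from the worms' surroundings was not tested, and the direction of a sex difference in miR-71 or miR-34 cannot be told apart from the choice of scale.

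Members were also counted by size, the limit being a share that differed at least 2-fold, for entries that reached 10 reads in either library. All 6 were eligible, and an entry listed at 0 was given 4 reads. Over all reads, 1 member passed toward the female library (bma-mir-71-p3) against 29.5% of the 112 eligible worm entries, and 1 toward the male (bma-mir-34-p3_1ss9AG) against 18.8%. The median ratio of the 6 members was 0.979. Over worm reads none passed toward the female (6.25% of worm entries) and 2 toward the male (41.1% of worm entries), with a median of 0.510. Those 2 were bma-mir-34-p3_1ss9AG and str-miR-71-5p_R+1, while bma-miR-34, with a female-to-male ratio of 0.5004, stopped just short of the limit of 0.5. The 41.1% is in part made by the use of 4 reads for a 0. Over worm reads it moves entries with few female reads and a listed male 0 past the limit toward the male. One such entry is asu-miR-2a-3p, with 12 female reads. On the authors' normalized values 5 of 6 passed toward the female (85.7% of worm entries) and none toward the male (5.36%).

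**Figure D2:**
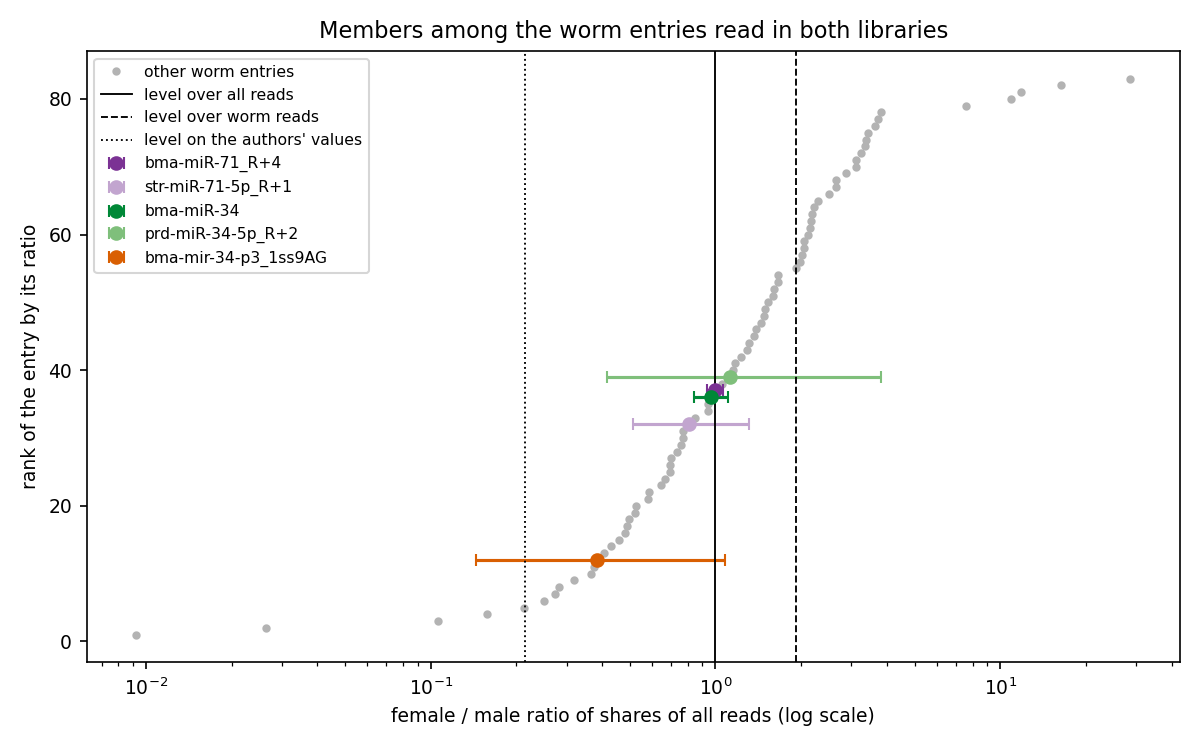
Female-to-male ratio of shares of all reads (x, log scale) against the rank of the entry by that ratio (y) for the 83 eligible worm entries read in both libraries, with the 5 members among them in colour with 95% counting intervals. Vertical lines mark where an entry is level over all reads (ratio 1), over worm reads (1.92) and on the authors' values (0.214); the main strands of miR-71 and miR-34 sit side by side, close to the middle of the ranking.

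Position among the worm entries is free of the scale. Of the 83 eligible worm entries read in both libraries, 36 had a lower and 46 a higher female-to-male ratio than bma-miR-71_R+4. For bma-miR-34 these numbers were 35 and 47, so that no entry lay between the pair. Relative to the median worm entry, bma-miR-71_R+4 was 1.24 times and bma-miR-34 was 1.28 times more toward the male library. The ranking and this median leave out eligible entries listed at 0 in 1 library. Most of those were listed at 0 in the male library, and so belong as listed at the female end. Among the 39 worm entries with at least 100 reads in both libraries, the nearest to bma-miR-71_R+4 in log2 ratio was bma-miR-34 (0.05 apart), followed by the candidate PC-3p-455_788 (0.08) and bma-miR-57 (0.21). The nearest to bma-miR-34 after miR-71 were PC-3p-455_788 (0.13) and bma-miR-49 (0.18). A likeness over 2 libraries rests on a single ratio per entry and is a description.

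The proportion of miR-71 to miR-34 differed between the libraries by less than counting error. Summed over their entries, miR-71 (5115 female and 1307 male reads) outnumbered miR-34 (1011 and 273) by 5.06 times in the female (4.73 to 5.42) and by 4.79 times in the male library (4.20 to 5.47). The quotient of these proportions was 1.06 (0.909 to 1.23), and no scaling can move it. They are proportions of reads and not of molecules.

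The 3p strand of miR-71 was listed above 0 in the female library alone. The entry bma-mir-71-p3 had 40 female reads and was listed at 0 in the male library, while its 5p partner strands had 5075 and 1307. It made up 0.782% of the female miR-71 reads (0.559 to 1.06), which would correspond to 10.2 male reads. With the male 0 as listed, the interval of the male share was 0 to 0.282%. The lower limit of the odds, female over male, was then 2.66. A listed 0 may still stand for a few reads, because of the 303 distinct sequences only 1 in each library held more than 0 but fewer than 5 reads, whereas 16 female and 13 male sequences held exactly 5. With 4 male reads in place of 0, the most such a minimum would hide, the male share was 0.305% (0.0832 to 0.779). The odds of the 3p strand were then 2.58 times higher in the female library, with an interval of 0.928 to 9.93 that includes 1. An arm difference in miR-71 therefore rested on the listed 0 being a true 0, and at this depth was not detectable with 4 reads in its place.

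The 3p strand of miR-34 leaned the other way at still lower counts. The entry bma-mir-34-p3_1ss9AG had 12 female and 8 male reads, 1.19% (0.615 to 2.06) and 2.93% (1.27 to 5.69) of the miR-34 reads. The odds were 0.398 times as high in the female library (0.148 to 1.14), an interval that includes 1. As a share of all reads it was 2.61-fold higher in males (0.924 to 6.93), as a share of worm reads 5.01-fold (1.78 to 13.3), and it turned to 1.79 times higher in the female library on the authors' values. The 5p strand was the major one for both miRNAs in both libraries.

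Other hairpins put these arm shares in context. Under the Brugia names, 12 other hairpins had both arms listed, and in 6 of them the lesser arm was at 0 in the male library. The lesser arm was taken as the one with fewer female reads, a choice that favours a higher male share. Only 4 of the 12 were deep enough for at least 5 male reads of the lesser arm at the female share. By the same rule miR-71 was deep enough (10.2 male reads) and miR-34 was not (3.24). Among the 4, miR-279 had 1.15% (0.894 to 1.47) of its female and 0.438% (0.219 to 0.783) of its male reads on the lesser arm. For miR-5364 the shares were 6.98% (5.40 to 8.84) and 3.53% (2.20 to 5.34), and neither pair of intervals overlapped. For miR-239 they were 4.54% and 4.85%, and miR-5361 had 4.46% (16 reads) in the female library and was listed at 0 in the male. Choosing hairpins by the female share favours those that are high there. Over all 12, the male share of the lesser arm was lower in 8, the 6 listed at 0 included, and higher in 4. Of these 4, miR-239 was nearly level, miR-153 had only 6 male reads in all and miR-5838 only 6 female reads. The remaining one, miR-87a, had 0.677% (10 reads) in the female and 3.28% (8 reads) in the male library. A lower male value, as listed for miR-71, was also found for miR-279 and miR-5364, with reads in both libraries. Of the 6 listed at 0, only miR-5361 reached 5 expected male reads at the female share (5.66). The rest could be listed at 0 at an equal share too, and so cannot show a lower male value. For miR-34 the higher male value was itself within counting error. Elsewhere, a male value more than slightly higher was found only at low counts.

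The 3' ends of both 5p strands differed between the libraries by less than counting error. The 24-nt form of miR-71, str-miR-71-5p_R+1, which ends in an added A, had 82 female and 26 male reads, 1.62% (1.29 to 2.00) and 1.99% (1.30 to 2.90) of the 5p reads. The 24-nt form of miR-34, prd-miR-34-5p_R+2, which ends in an added T, had 22 and 5 reads, 2.20% (1.39 to 3.32) and 1.89% (0.615 to 4.35). The odds of the longer form, female over male, were 0.809 for miR-71 (0.513 to 1.32) and 1.17 for miR-34 (0.427 to 4.00), and both intervals include 1. Of the 4 other worm sequences with a listed form 1 base longer, the longer form took from 2.25% (miR-252) to 13.6% (miR-2c) of the female reads. The miR-71 share of 1.62% was below all 4 of these female values, though inside the interval of miR-252 (0.978 to 4.39), and the miR-34 interval includes the miR-252 value. Forms under the apparent minimum would be missing from these shares.

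**Figure D3:**
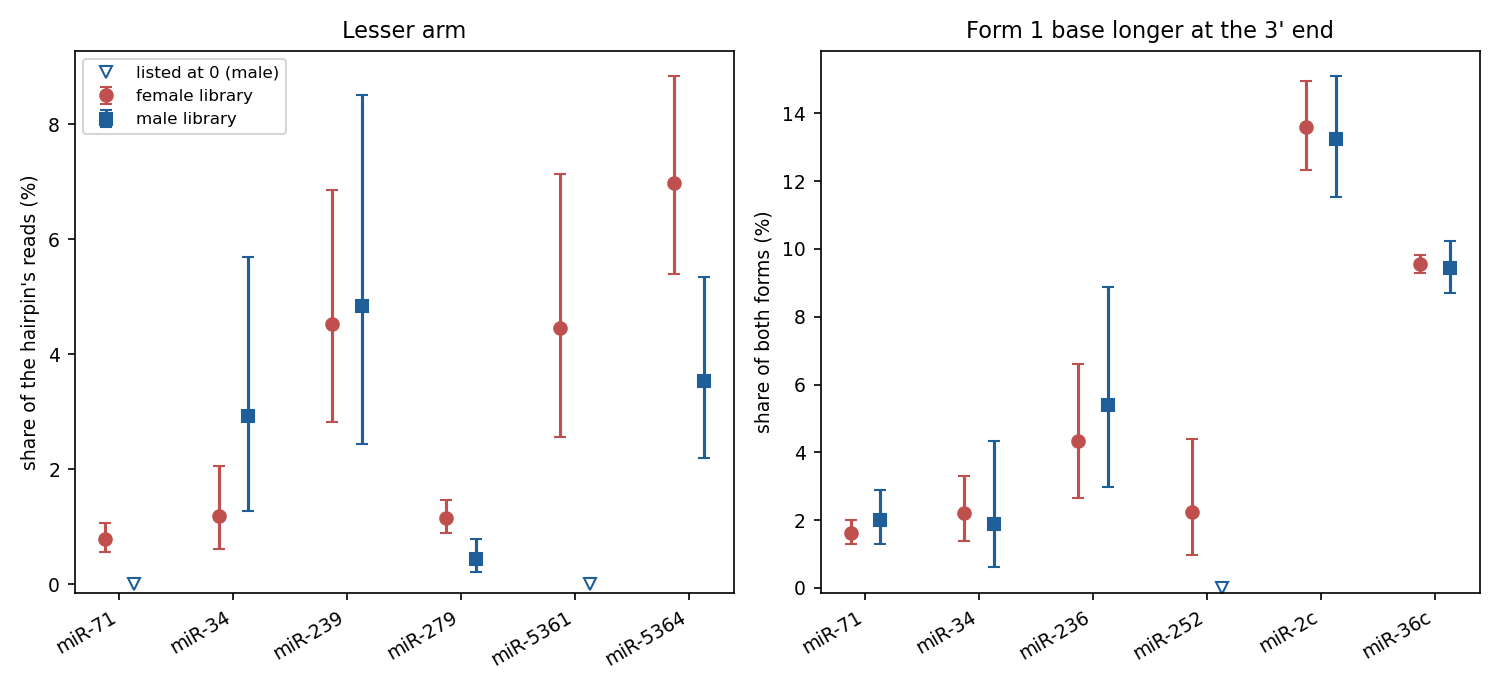
Left, share (%) of a hairpin's reads on its lesser arm for miR-71, miR-34 and the 4 other hairpins deep enough for comparison, a depth that miR-34 itself did not reach. Right, share (%) of the form 1 base longer at the 3' end for all worm sequences with such a pair. Circles are the female and squares the male library with 95% counting intervals, and open triangles are values listed at 0; the longer forms of miR-71 and miR-34 stay near 2% in both libraries.

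Nematode-named and mammal-named miR-34 differ in sequence, and their reads were divided differently between the libraries. The mammal-named age-miR-34a had 22 female and 84 male reads, 0.00752% and 0.112% of all reads, a male excess of 14.9-fold (9.24 to 25.1). It made up 2.15% of the reads with a miR-34 seed on 5p strands in the female (1.36 to 3.24) and 24.1% in the male library (19.7 to 28.9). The nematode-named miR-34 5p reads numbered 999 and 265. A count of miR-34 by seed alone would therefore mix both kinds in the male library to a larger extent than in the female.

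In many invertebrates the miR-71 gene lies in a cluster with genes of the miR-2 family, and the miR-2 entries did not follow miR-71 as a group. Summed miR-2 (2899 female and 1350 male reads over 3 nematode-named entries) stood below miR-71 in the female library, where miR-71 had 1.76 times as many reads (1.69 to 1.85). In the male library that proportion was 0.968 (0.897 to 1.05). With the candidate PC-3p-1163_341 added, which is the miR-2c strand with 1 more base (372 and 191 reads), the proportions were 1.56 (1.50 to 1.63) and 0.848 (0.787 to 0.914). The quotient of female over male, 1.82 (1.67 to 1.99) without and 1.84 (1.69 to 2.01) with that candidate, does not depend on any scaling. It came from bma-miR-2c_R+1_1ss1CT, with 2362 female and 1252 male reads. Against this entry miR-71 stood at 2.17 in females and 1.04 in males, a quotient of 2.07 (1.89 to 2.28). Against bma-miR-2a, with 525 and 98 reads, miR-71 stood at 9.74 and 13.3, a quotient of 0.731 (0.578 to 0.916) in the other direction. The entry asu-miR-2a-3p had 12 female reads and was listed at 0 in the male library. Whether these genes are clustered in Acanthocheilonema viteae was not examined.

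Other miRNAs with known roles in lifespan or stress of Caenorhabditis elegans were found on both sides of miR-71 and miR-34. Of a list of 8 (lin-4, let-7, miR-80, miR-124, miR-228, miR-238, miR-239 and miR-246), 6 had a nematode-named entry, and miR-238 and miR-246 had none in the table. These gave 8 eligible entries. Over all reads 3 of them passed the size limit toward the female side (29.5% of worm entries did) and 3 toward the male (18.8%), with a median ratio of 0.584 against 1.23 for the worm entries read in both libraries. Over worm reads 1 passed toward the female (6.25% of worm entries) and 5 toward the male side (41.1%), with a median of 0.304 against 0.642.

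Over all reads, the female side of that list held bma-miR-228, a glial miRNA linked to dietary restriction, with 3005 female and 47 male reads and a ratio of 16.4 (12.3 to 22.3). The neuronal bma-miR-124_R-1, with 1828 and 187 reads, had 2.50 (2.15 to 2.92), and its longer form asu-miR-124-3p_R+2, with 61 and 5 reads, had 3.12 (1.27 to 9.95). On the male side stood cel-miR-80-5p_1ss13GC, from the lesser arm of a miRNA tied to dietary restriction, with 21 female and 34 male reads, 6.33-fold higher (3.57 to 11.5). The larval timer asu-let-7-5p, identical in mammals, had 1304 and 1185 reads and was 3.55-fold higher in the male (3.28 to 3.85). It was counted as a worm entry by its name, but its sequence cannot assign these reads to worm or mammal. Their origin was not tested. The lin-4 strand asu-lin-4-5p_1ss19TC, with 4466 and 1773 reads, was also higher in the male, 1.55-fold (1.47 to 1.64). The arms of miR-239, whose loss lengthens life in Caenorhabditis elegans, had ratios of 0.523 (0.444 to 0.619) for bma-miR-239-5p_R-1 and 0.488 (0.225 to 1.12) for bma-miR-239-3p_R+1. On the authors' normalized values let-7, lin-4 and both arms of miR-239 turned to the female side, with ratios of 1.31 for asu-let-7-5p, 3.01 for asu-lin-4-5p_1ss19TC, 2.44 for bma-miR-239-5p_R-1 and 2.28 for bma-miR-239-3p_R+1. The ratio of cel-miR-80-5p_1ss13GC stayed on the male side at 0.738. Over all reads, the intervals of bma-miR-71_R+4 and bma-miR-34 overlapped that of none of these entries except bma-miR-239-3p_R+1.

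**Figure D4:**
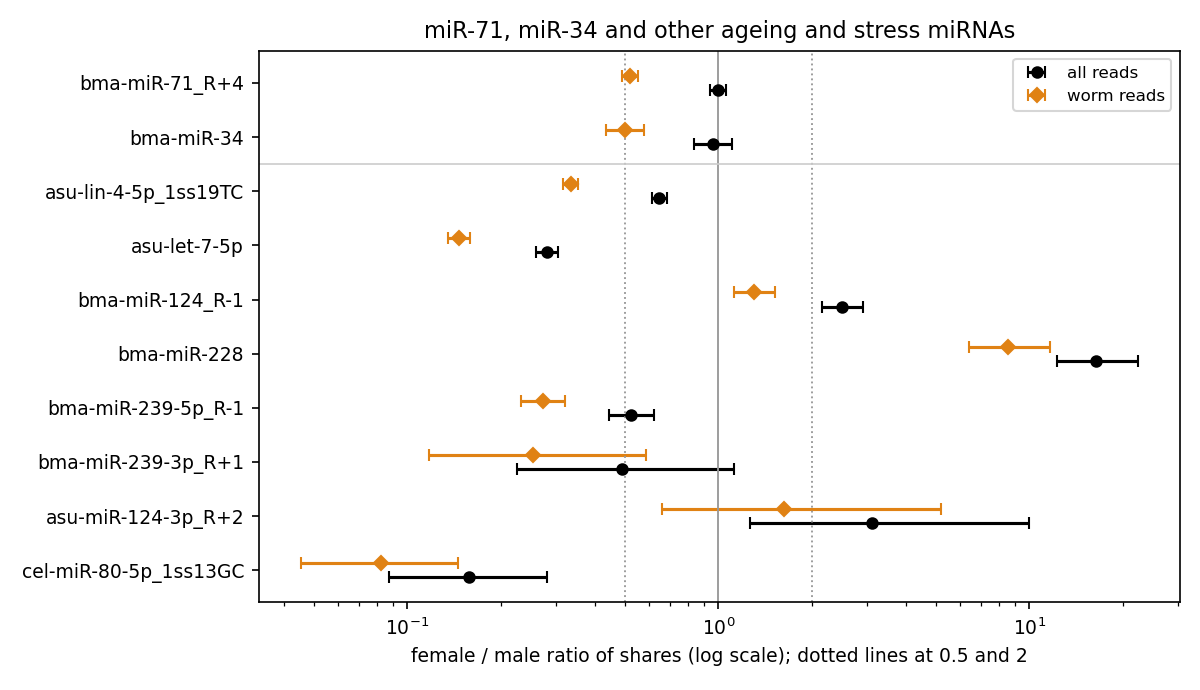
Female-to-male ratio of shares (log scale) over all reads (circles) and worm reads (diamonds) with 95% counting intervals, for the main strands of miR-71 and miR-34 (above the line) and the 8 eligible entries of the lifespan and stress list. Over all reads miR-71 and miR-34 lie at 1, with miR-228 at 16.4 on one side and miR-80 at 0.158 on the other.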

How the data were processed

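Small RNA from the secretions of adult females and males was sequenced, 1 library per sex. The deposited table holds, per the file headers, a name, a sequence and, for each library, raw and normalized values. The raw column was read as estimated counts, since some of the deposited values are parts of reads. The deposited normalized values, treated as a signal, equal the raw column times 1.09 (female) and 0.915 (male). The sources used here do not give how the authors chose these constants, nor their aligner or reference. Entries were sorted by species code into 86 nematode-named, 43 candidate (PC) and 255 mammal-named. Estimated counts were rounded for intervals.

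Shares have exact binomial (Clopper-Pearson) 95% intervals, ratios of shares exact conditional binomial ones, and odds ratios conditional exact ones (scipy 1.17.1). They cover counting error only, as reads lacking molecular identifiers cannot be taken for separate molecules. An entry passed by size at 2-fold with at least 10 reads in a library. Values of 0 were set to 4 reads for that rule. Arms were folded with RNAduplex 2.7.2, and edgeR 4.0.16 gave TMM factors.

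The entries named are the members, those sharing their seeds, rank neighbours, the 3 nearest in ratio and 2 lists. Members and lists were chosen with earlier results of these data known. The use of 4 reads for a 0, the longer miR-2c form, the comparison with other arms and end forms, and the counts on other scales were chosen after seeing the data. No per-sample column was left unused, and no genome was used.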

Additional observations from a re-analysis of the deposited data

How the results depend on the processing

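The scale decides the side of both miRNAs. The female-to-male ratio of summed miR-71 was 1.00 over all reads, 0.521 over worm reads, 4.67 on the authors' values, 5.40 with TMM, 6.67 with median-of-ratios scaling and 1.17 without the most abundant entry of each library. For summed miR-34 it was 0.947, and in the same order 0.493, 4.42, 5.11, 6.31 and 1.11, and it was 0.740 with the mammal-named entry added. Merging identical sequences, and membership by seed among nematode-named and candidate entries, moved neither beyond its counting interval. The entry bma-mir-34-p3_1ss9AG (0.384) turned to 1.79 on the authors' values, 2.07 with TMM and 2.56 with median-of-ratios scaling. The male 3p share of miR-71 went from 0 to 0.305% with 4 reads. By size, 33 worm entries passed toward the female side, 7 over worm reads and 96 on the authors' values. The 21 toward the male side became 7 with at least 100 reads, 35 with at least 1 read, 46 over worm reads and 6 on the authors' values. Some of the 35 and some of the 46 were listed at 0 in the male library and passed through the 4 reads given to them. The miR-71 to miR-34 proportions stayed within their intervals when only the most abundant entry of each was used. The miR-34 arm shares were recomputed only without rounding, which could not change them because their counts are whole. No library could be left out, and no paired analysis was possible because each sex has 1 library.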

Other observations

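The 3p strand of miR-71 starts like the miR-2 family. The first 6 bases of bma-mir-71-p3, tatcac, are shared by 5 of the 384 entries, 4 nematode-named and 1 candidate: bma-mir-71-p3 itself, bma-miR-2a, asu-miR-2a-3p, bma-miR-2c_R+1_1ss1CT and PC-3p-1163_341, which is the miR-2c strand with 1 more base. Within the seed, bma-mir-71-p3 (ATCACTA) and bma-miR-2a (ATCACAG) part after base 6, and no other entry had the seed of bma-mir-71-p3. This likeness was noticed after the sequences were seen and is given as a description.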
